A study of Mus musculus with 12 samples.

Results

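Immediate early genes are transcribed within minutes of a growth factor, a cytokine, a calcium signal or a stress, from transcription factors that are already present in the cell and without the need for new protein. Serum response factor with its Elk partners, and CREB, carry the signal of the ERK and other kinases to their promoters, and many of the products are transcription factors themselves: the zinc finger proteins of the Egr family, the Fos and Jun proteins that pair to form AP-1, and the orphan nuclear receptors of the Nr4a family. In brain cells they are best known as markers of recent stimulation, and in proliferating cells as part of the answer to EGF and FGF, both of which are in the medium of neural stem cells (NSCs).

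The 10 genes described here are *Egr1* (ENSMUSG00000038418), *Egr2* (ENSMUSG00000037868), *Egr3* (ENSMUSG00000033730), *Fos* (ENSMUSG00000021250), *Fosb* (ENSMUSG00000003545), *Jun* (ENSMUSG00000052684), *Junb* (ENSMUSG00000052837), *Ier2* (ENSMUSG00000053560), *Atf3* (ENSMUSG00000026628) and *Nr4a1* (ENSMUSG00000023034). They were found by gene symbol among 45792 genes listed, and all 10 were among the 15706 genes with enough counts for a test, *Egr3* only through the Igfbp2-treated libraries, since 9 of the 10 passed when WT and vehicle-treated libraries were filtered alone. The set was chosen on a measured value, the rise of *Egr1* between vehicle-treated and Igfbp2-treated *Ncf1*-/- NSCs, so for these genes that comparison is given as a description with no test. The other 2 comparisons were tested, but each shares its *Ncf1*-/- libraries with the comparison that chose *Egr1*, and is not independent of it.

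RNA was sequenced from 12 cultures of NSCs, 4 in each of 3 groups. The cultures came from the forebrains of mouse pups 1 to 2 days old, WT or *Ncf1*-/- on the C57BL/6J background. According to the study's methods each pup was grown separately. The serum-free medium held EGF, FGF, insulin, transferrin, selenite and B-27. Ncf1 (p47phox) is the organizer subunit of the superoxide-producing oxidase Nox2, and *Ncf1*-/- pups lack it in every cell. The groups were untreated WT NSCs, *Ncf1*-/- NSCs whose label gives no treatment and which the study's methods describe as vehicle-treated, and *Ncf1*-/- NSCs given mouse recombinant Igfbp2, a secreted protein that binds insulin-like growth factors. Igfbp2 was added 48 h after plating and RNA was prepared 48 h later, so the values describe a state 48 h into treatment and not the first minutes of a response. The labels give the dose as 100 ng/ml, and the study's methods give a lower one. No Igfbp2-treated WT cultures were analysed here.

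Library totals were between 18201622 and 34086554 expected counts (median 20932987). For *Ncf1*, WT held 2 to 7 counts, vehicle-treated NSCs 2 to 4.39 and each Igfbp2-treated library 1, too few to check the genotype. All 10 markers of NSCs (*Nes*, *Sox2* and others) were measured, and their summed level was 3977 to 10150 CPM (counts relative to library size) in WT and 8961 to 9823 CPM in the *Ncf1*-/- libraries. Y chromosome genes (*Uty*, *Kdm5d*, *Eif2s3y* and *Ddx3y*) summed to 105.2 to 115.6 CPM in the vehicle-treated libraries and to 7.79 to 9.15 CPM in the Igfbp2-treated ones, although the study describes the 2 treatments as paired cultures of the same animals. In WT they summed to 106.8 to 118.3 CPM in replicates 1 to 3 and to 6.47 CPM in replicate 4. *Xist*, the RNA of the inactive X chromosome, was at 3.88 to 5.21 CPM in WT replicates 1 to 3, 290.8 CPM in WT replicate 4, 72.3 to 87.8 CPM in the vehicle-treated and 165.7 to 274.6 CPM in the Igfbp2-treated libraries, so the vehicle-treated libraries held both kinds of RNA. Treatment with Igfbp2 and the difference in sex-linked expression cannot be told apart in these libraries. Calls of the 10 genes against WT are also given without WT replicate 4. Of the genes of other lists that are named by rule, 24 were called between vehicle-treated and WT NSCs and 25 between Igfbp2-treated and WT NSCs, and without WT replicate 4 the same 24 and 25 were called with the same sign. These genes were named for calls with large fold changes in fits that held WT replicate 4, so these counts could hardly change. Whole lists did move. With Igfbp2 against WT, regulators of immediate early genes went from 7 higher and 3 lower to 4 higher and 4 lower.

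Levels are given as CPM scaled by TMM factors, which make libraries comparable for one gene, as mean ± SD of 4 cultures. The SD, SE and adjusted p treat these as independent, which could not be checked for the *Ncf1*-/- groups. Each vehicle-treated library held both Y-linked RNA and *Xist*, although the study describes cultures of single pups. If the *Ncf1*-/- cultures are not of separate animals, their SD and SE may be too small and the adjusted p too low. Calls were made at an adjusted p under 0.05 with edgeR's quasi-likelihood test with Benjamini-Hochberg adjustment over all 15706 genes, and log2 fold changes are given with their standard error (SE).

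RefSeq (GRCm38.p6) gave the promoter of 7 of the 10 genes. *Egr2* has 5 listed starts and the others 1 each. The 250 bases before the transcription start are shown for 5 genes, because these 5 had higher counts in every Igfbp2-treated than in every vehicle-treated library and hold a site of the kind that immediate early promoters are known for. Capitals mark the serum response element (the CArG box), the core of the cAMP response element (TGACG on either strand) and the Egr site (GCGNGGGCG on either strand). For *Egr2* the start shown was chosen after the search, as the most upstream one whose window holds both the CArG box and the TGACG core.
Egr2 (chr10:67537619-67537868, plus strand): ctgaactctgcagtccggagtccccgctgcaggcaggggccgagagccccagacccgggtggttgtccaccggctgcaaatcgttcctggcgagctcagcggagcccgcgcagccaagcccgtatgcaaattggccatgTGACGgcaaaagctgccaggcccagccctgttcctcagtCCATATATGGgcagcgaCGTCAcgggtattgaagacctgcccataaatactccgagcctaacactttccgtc
Fos (chr12:85473640-85473889, plus strand): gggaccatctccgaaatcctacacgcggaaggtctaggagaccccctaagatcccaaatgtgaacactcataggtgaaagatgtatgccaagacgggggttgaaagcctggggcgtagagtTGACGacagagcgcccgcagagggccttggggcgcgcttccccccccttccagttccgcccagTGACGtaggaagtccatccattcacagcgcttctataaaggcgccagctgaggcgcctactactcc
Fosb (chr7:19310046-19310295, minus strand): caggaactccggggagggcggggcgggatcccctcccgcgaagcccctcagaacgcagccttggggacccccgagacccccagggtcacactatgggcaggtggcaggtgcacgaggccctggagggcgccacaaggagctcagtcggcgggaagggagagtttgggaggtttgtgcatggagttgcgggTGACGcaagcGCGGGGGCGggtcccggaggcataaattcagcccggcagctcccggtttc
Junb (chr8:84978749-84978998, minus strand): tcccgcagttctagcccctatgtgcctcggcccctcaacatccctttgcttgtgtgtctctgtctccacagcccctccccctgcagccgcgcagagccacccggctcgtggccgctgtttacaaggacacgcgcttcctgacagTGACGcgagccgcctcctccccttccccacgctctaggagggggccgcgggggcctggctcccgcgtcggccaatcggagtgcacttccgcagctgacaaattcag
Nr4a1 (chr15:101266596-101266845, plus strand): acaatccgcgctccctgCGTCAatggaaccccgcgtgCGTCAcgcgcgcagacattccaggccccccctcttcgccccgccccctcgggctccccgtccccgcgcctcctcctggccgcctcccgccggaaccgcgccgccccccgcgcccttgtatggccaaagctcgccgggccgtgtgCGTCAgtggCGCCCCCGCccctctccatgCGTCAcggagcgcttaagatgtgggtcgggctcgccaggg
Within windows of 250 bases before to 50 after the start, the TGACG core was in 6 of the 7 genes and in 23% of all 27025 genes with a promoter in the table. Its first base stood at -129 and -66 in *Fos* and at 4 places in *Nr4a1*, counted back from the start. A gene was counted where any of its windows held a motif. A CArG box was in 1 of 7, *Egr2* (1.81% of all genes), at -72 in the window shown. The windows of both starts downstream overlap that one and hold the same box, the nearest window upstream holds another CArG box, and the remaining window holds none of the motifs. The Egr site was in 2 of 7, *Fosb* and *Nr4a1* (6.27% of all genes). The full element TGACGTCA, which contains the core, was in 0 of 7 (2.03% of all genes), and the AP-1 site TGANTCA in 0 of 7 (8.97%). These matches describe the letters of the windows and nothing about what is bound there. Bases outside the windows were not searched, so a motif absent here may lie further from the start. *Egr1*, *Egr3* and *Ier2* had no window.

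**Figure D1:**
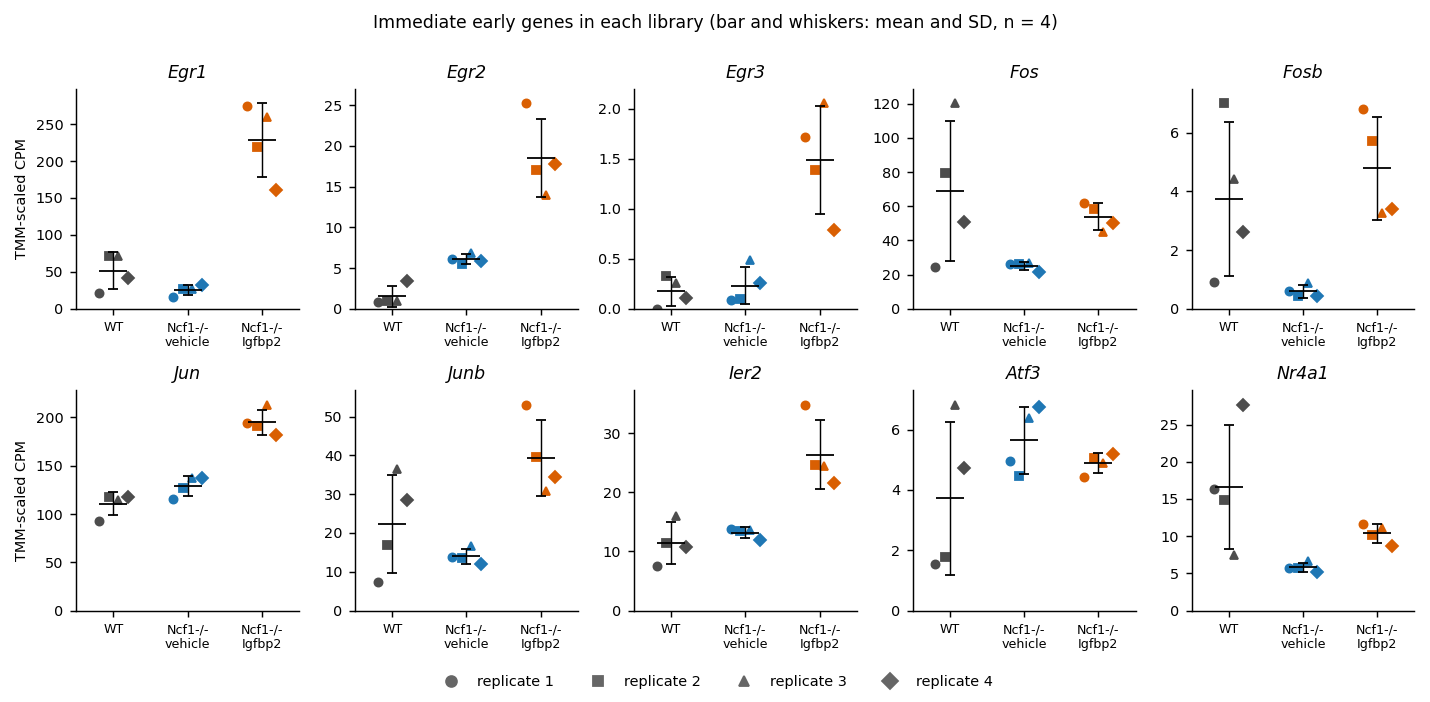
Each panel plots 1 gene, with TMM-scaled CPM on a linear axis from 0 and the 12 libraries by group. Symbols give the replicate, and bars and whiskers give the mean and SD of 4 cultures. The 4 Igfbp2-treated libraries sit above all others for *Egr1*, *Egr2*, *Egr3*, *Jun* and *Ier2*, whereas WT is the most spread group for *Fos*, *Fosb*, *Junb*, *Atf3* and *Nr4a1*.

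*Egr1* encodes the zinc finger factor Egr1, which many growth factors induce. Its level was 21.2, 71.8, 72.0 and 41.8 CPM in WT replicates 1 to 4, with a mean of 51.7 ± 24.8. In vehicle-treated *Ncf1*-/- NSCs it was 16.6, 26.3, 27.1 and 31.6 CPM (25.4 ± 6.29), and in Igfbp2-treated *Ncf1*-/- NSCs 273.8, 218.5, 259.2 and 161.4 CPM (228.2 ± 50.4). Every Igfbp2-treated library was thus higher than every other library, while the lowest WT library lay inside the vehicle-treated range. The log2 fold change between Igfbp2-treated and vehicle-treated NSCs was 3.17 (SE 0.35), a ratio of 8.98. This rise ranked 5 among 13772 genes averaging 1 CPM or more, and 2 among 11172 averaging 5 CPM or more. Against WT, *Egr1* was 4.41-fold higher in Igfbp2-treated NSCs (log2 fold change 2.14, SE 0.33, adjusted p = 0.000107). In vehicle-treated NSCs it was 2.04-fold lower than in WT (log2 fold change -1.03, SE 0.33, adjusted p = 0.0165). That call was made in 17 of the 21 fits run, over which the adjusted p ran from 0.000713 to 0.888. Among the fits that lost it was the one without vehicle-treated replicate 1 (log2 fold change -0.86, adjusted p = 0.0525). Without WT replicate 4 the values were -1.15 (adjusted p = 0.0142) for vehicle-treated and 1.98 (adjusted p = 0.000548) for Igfbp2-treated NSCs, the second with a range of 7.69e-11 to 0.0168 over 21 fits.

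*Egr2*, a related factor known for its part in myelination of peripheral nerve, followed another order. It stood at 0.819, 0.918, 0.918 and 3.45 CPM in WT, at 6.14, 5.47, 6.89 and 5.82 CPM in vehicle-treated and at 25.3, 17.0, 14.0 and 17.8 CPM in Igfbp2-treated *Ncf1*-/- NSCs. The 3 groups did not overlap, with WT lowest and Igfbp2-treated NSCs highest. It was higher than in WT by a log2 fold change of 2.06 (SE 0.37, adjusted p = 0.000407) in vehicle-treated and of 3.66 (SE 0.37, adjusted p = 3.51e-06) in Igfbp2-treated NSCs. WT replicate 4, the library with few Y-linked counts, held 62 of the *Egr2* counts, and without it the log2 fold changes were 2.74 and 4.30 (adjusted p = 1.24e-06 and 4.5e-08, where the highest over 21 fits were 0.0323 and 0.000829). Between the treatments *Egr2* differed by 1.60 (SE 0.32), also upward.

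*Egr3*, which acts downstream of many of the same signals, was scarce: WT libraries held 0 to 9 counts, vehicle-treated ones 2 to 11 and Igfbp2-treated ones 16 to 43. In CPM these were 0, 0.324, 0.258 and 0.111 in WT, 0.0871, 0.0968, 0.486 and 0.261 in vehicle-treated and 1.72, 1.38, 2.06 and 0.786 in Igfbp2-treated NSCs. The Igfbp2-treated libraries did not overlap the others, and WT and vehicle-treated libraries did. *Egr3* entered the tests because it was high in Igfbp2-treated NSCs, so its call there supports nothing further. The log2 fold change against WT was 3.01 (SE 0.59, adjusted p = 0.000616) in Igfbp2-treated and 0.38 (SE 0.71, adjusted p = 0.669) in vehicle-treated NSCs, where at this depth a difference was not detectable. Between the treatments it was 2.63 (SE 0.56).

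The AP-1 genes split in a different way. *Fos*, whose product is the classic partner of Jun, was at 24.5, 79.7, 120.4 and 51.1 CPM in WT, at 26.1, 26.1, 26.8 and 21.5 CPM in vehicle-treated and at 61.9, 58.6, 44.8 and 50.3 CPM in Igfbp2-treated *Ncf1*-/- NSCs. The WT range took in all Igfbp2-treated libraries, and WT replicate 1 alone lay inside the vehicle-treated range. Vehicle-treated NSCs were 2.75-fold lower than WT (log2 fold change -1.46, SE 0.34, adjusted p = 0.00263), and without WT replicate 4 by -1.60 (adjusted p = 0.00221, range 2.86e-05 to 0.282). Igfbp2-treated NSCs differed from WT by -0.36 (SE 0.33, adjusted p = 0.368), a value that WT replicates decide. It was -0.64 (adjusted p = 0.0242) without WT replicate 1 and 0.06 (adjusted p = 0.851) without WT replicate 3, the lowest and highest adjusted p over 21 fits, in which the log2 fold change ran from -0.83 to 0.06. From vehicle to Igfbp2 the log2 fold change was 1.10 (SE 0.34).

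*Fosb*, a Fos relative whose splice form accumulates with repeated stimulation of neurons, was at 0.910, 7.02, 4.42 and 2.62 CPM in WT and at 0.610, 0.435, 0.883 and 0.448 CPM in vehicle-treated NSCs. In Igfbp2-treated NSCs it was at 6.81, 5.71, 3.25 and 3.39 CPM. Every vehicle-treated library was below every other library, the highest of them by little. *Fosb* was 6.25-fold lower in vehicle-treated NSCs than in WT (log2 fold change -2.64, SE 0.53, adjusted p = 0.000902), and without WT replicate 4 by -2.81 (adjusted p = 0.00109, range 6.26e-07 to 0.204). In Igfbp2-treated NSCs its log2 fold change against WT was 0.35 (SE 0.45, adjusted p = 0.517). From vehicle to Igfbp2 the ratio was 7.98 (SE 0.53 on the log2 scale).

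*Jun*, the partner common to most AP-1 dimers, varied least. Its levels were 92.7, 117.3, 114.9 and 118 CPM in WT, 116, 126.8, 137.2 and 136.9 CPM in vehicle-treated and 194.1, 190.9, 213.2 and 181.6 CPM in Igfbp2-treated NSCs. The Igfbp2-treated libraries stood clear of the other 8. *Jun* was 1.76-fold higher than WT in Igfbp2-treated NSCs (log2 fold change 0.82, SE 0.10, adjusted p = 1.02e-05) and was not called in vehicle-treated NSCs (0.22, SE 0.09, adjusted p = 0.0592). On log2(TPM + 1) the first became 0.38 (adjusted p = 0.104, and 6.46e-15 to 0.459 over 21 fits), and with library totals the second became 0.40 (adjusted p = 0.00753, and 0.00753 to 0.791). Counts of *Jun* were not whole numbers, except in WT replicate 4, so some of its reads were shared with another locus and its level is less certain. Between treatments the log2 fold change was 0.59 (SE 0.09).

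*Junb*, which often opposes Jun in cell growth, was at 7.41, 17.0, 36.4 and 28.5 CPM in WT, at 13.8, 13.5, 16.7 and 12.1 CPM in vehicle-treated and at 53.1, 39.6, 30.8 and 34.3 CPM in Igfbp2-treated NSCs. The 2 treatments did not overlap, and the WT libraries reached into both. Against WT it was not called in vehicle-treated (-0.68, SE 0.35, adjusted p = 0.119) or Igfbp2-treated NSCs (0.81, SE 0.35, adjusted p = 0.0576). Of 21 fits, the first was called in 1, without WT replicate 1 (-0.97, adjusted p = 0.00383, range 0.00383 to 0.772). The second was called in 3, without WT replicate 3 (1.17, adjusted p = 0.00639, range 0.00639 to 0.944), with DESeq2 (0.82, adjusted p = 0.0326) and with no filter on low counts (0.83, adjusted p = 0.0419). From vehicle to Igfbp2 the log2 fold change was 1.49 (SE 0.36).

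*Atf3*, a stress-responsive factor that pairs with Jun proteins, was the exception among the 10. It was at 1.55, 1.78, 6.83 and 4.73 CPM in WT, at 4.97, 4.45, 6.40 and 6.75 CPM in vehicle-treated and at 4.43, 5.05, 4.88 and 5.20 CPM in Igfbp2-treated NSCs. All groups overlapped. Its log2 fold change between the treatments was -0.21 (SE 0.37), and against WT it was 0.57 (SE 0.37, adjusted p = 0.198) and 0.37 (SE 0.37, adjusted p = 0.41) in vehicle-treated and Igfbp2-treated NSCs. Without WT replicate 3, in which *Atf3* was highest, both were called (1.09, adjusted p = 0.00797, and 0.88, adjusted p = 0.025), where over 21 fits they reached 0.428 and 1.

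*Ier2*, a small nuclear protein made early after mitogens, was at 7.46, 11.5, 16.1 and 10.8 CPM in WT, at 13.8, 13.5, 13.6 and 11.9 CPM in vehicle-treated and at 34.8, 24.5, 24.5 and 21.6 CPM in Igfbp2-treated NSCs. The Igfbp2-treated libraries lay above all 8 others. *Ier2* was 2.28-fold higher than WT in Igfbp2-treated NSCs (log2 fold change 1.19, SE 0.20, adjusted p = 0.000192) and differed by 0.19 (SE 0.20, adjusted p = 0.428) in vehicle-treated NSCs. Between the treatments the ratio was 1.997 (SE 0.20 on the log2 scale).

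*Nr4a1*, a nuclear receptor without a known ligand (Nur77), had, like *Fos*, its highest mean in WT. It was at 16.4, 14.9, 7.49 and 27.7 CPM in WT, at 5.75, 5.76, 6.67 and 5.19 CPM in vehicle-treated and at 11.6, 10.1, 11.1 and 8.64 CPM in Igfbp2-treated NSCs. The vehicle-treated libraries lay below all others. *Nr4a1* was 2.82-fold lower in vehicle-treated NSCs than in WT (SE 0.29 on the log2 scale, adjusted p = 0.000688), with a log2 fold change of -1.17 (adjusted p = 0.000983, range 1.47e-06 to 0.171) without WT replicate 4. In Igfbp2-treated NSCs it was not called against WT (-0.67, SE 0.28, adjusted p = 0.0552), but it was in 8 of 21 fits, among them the fit without WT replicate 3 (-0.92, adjusted p = 0.000869, with a highest value of 0.26). From vehicle to Igfbp2 its log2 fold change was 0.83 (SE 0.29).

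**Figure D2:**
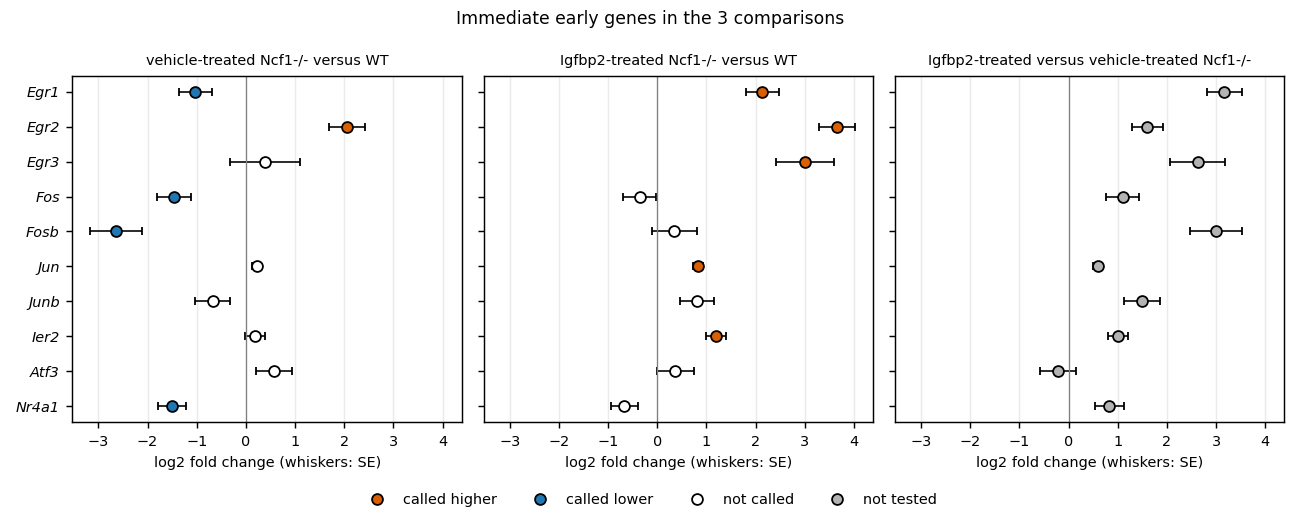
Points are fitted log2 fold changes of the 10 genes (horizontal axis) in the 3 comparisons, and whiskers are their SE. Against WT, vehicle-treated NSCs have 1 gene called higher (*Egr2*) and 4 called lower (*Egr1*, *Fos*, *Fosb* and *Nr4a1*), Igfbp2-treated NSCs have 5 called higher, and the grey points on the right were not tested.

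Compared with WT, vehicle-treated *Ncf1*-/- NSCs thus had lower *Egr1*, *Fos*, *Fosb* and *Nr4a1* and higher *Egr2*, and the other 5 genes were not called. Of all genes tested, 28.9% were called higher and 28.2% lower in vehicle-treated *Ncf1*-/- NSCs than in WT, against 1 and 4 of the 10, so the share called is like that of other genes. For 3 of the 10 (*Egr2*, *Fosb* and *Nr4a1*) the 2 groups did not overlap, as for 51.2% of all genes. The median log2 fold change of the 10 was -0.24, with 0.02 over all genes. Scaled by library totals alone, the calls were 2 higher and 4 lower. Without WT replicate 4, where both groups are alike in Y-linked expression but not in *Xist*, 1 was called higher and 4 lower.

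In Igfbp2-treated *Ncf1*-/- NSCs compared with WT, *Egr1*, *Egr2*, *Egr3*, *Jun* and *Ier2* were higher, 5 of 10 with *Egr3* included, and the other 5 were not called. Of all genes tested, 31.6% were called higher, 30.8% lower, and 54.3% had no overlap between groups, as 5 of the 10 had. The median of the 10 was 0.81, with -0.01 over all genes. The count was 5 without WT replicate 4 and 8 without WT replicate 3, with 7 higher and 1 lower. Without WT replicate 4 the log2 fold changes of *Egr3*, *Jun* and *Ier2* were 2.82, 0.78 and 1.09. On log2(TPM + 1) it was 4 higher and 1 lower, and with library totals 5 higher and 1 lower, *Nr4a1* being the lower gene in each. WT replicate 4 and the Igfbp2-treated libraries were alike in Y-linked expression, and *Egr1* was 41.8 CPM in the first and at least 161.4 CPM in the second. In WT replicate 4, *Egr2* (3.45 CPM), *Nr4a1* (27.7 CPM) and, by little, *Jun* were above WT replicates 1 to 3. The other genes of the set lay within their range. This is a single library that differs from the Igfbp2-treated ones in genotype and treatment, and the part of sex-linked expression was not tested.

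Between the treatments, all genes of the set but *Atf3* (9 of the 10) were higher in every Igfbp2-treated library than in every vehicle-treated one. No overlap in either direction was seen for 34.1% of all genes tested, and nothing is read from the comparison of these shares because the comparison chose the set. The median of the 10 was 1.30, with 0.04 over all genes, and the log2 fold changes of the 9 ran from 0.59 (*Jun*) to 3.17 (*Egr1*). The vehicle-treated libraries served in both this comparison and that with WT, so a low value in them enters both. With Igfbp2, *Egr1*, lower than WT with vehicle, was higher than WT, whereas *Fos*, *Fosb* and *Nr4a1*, also lower with vehicle, were not called against WT.

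Levels of different genes were compared per length, as TPM (abundance relative to the sum over all transcripts). In WT the order was *Fos* (32.5 ± 21.1 TPM), *Jun* (26.7 ± 5.13), *Egr1* (11.97 ± 6.16) and *Junb* (10.1 ± 6.55). *Fos* and *Jun* did not differ beyond their SD, nor did *Egr1* and *Junb*, whereas *Jun* was above *Egr1* by more than both SDs. In vehicle-treated NSCs *Jun* led with 32.1 ± 5.21 TPM, well clear of *Fos* with 11.3 ± 0.416 TPM, and *Egr1* ranked 5 with 6.22 ± 2.13 TPM. In Igfbp2-treated NSCs *Egr1* came first with 40.2 ± 12.5 TPM, within the SD of *Jun* with 35.1 ± 8.41 TPM. *Egr3* was last in WT and Igfbp2-treated NSCs and *Fosb* in vehicle-treated ones, where *Fosb* (0.125 ± 0.0387 TPM) and *Egr3* (0.143 ± 0.109 TPM) were within their SD. A group of 5 small structural RNAs took 56.0% to 60.3% of the TPM in vehicle-treated, 59.8% to 66.8% in WT and 62.1% to 72.3% in Igfbp2-treated libraries, so TPM serve here for the order within a group only.

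The WT cultures differed among themselves far more in these genes than in others. The median SD of log2 CPM over the 10 genes was 0.96 in WT, 0.17 in vehicle-treated and 0.32 in Igfbp2-treated NSCs, where over all genes with at least 1 CPM it was 0.20, 0.13 and 0.15. WT replicate 1 was the lowest WT library for 9 of the 10 genes, with a median deviation of -1.04 from the group mean, where 24.6% of all genes were lowest in it. WT replicate 3 was the highest for 5 of the 10, with a median deviation of 0.59. Vehicle-treated replicate 3 was the highest of its group for 7 and Igfbp2-treated replicate 1 for 7, with deviations of 0.19 and 0.28. The exception in WT replicate 1 was *Nr4a1*, which stood 0.12 above the group mean there and was lowest in WT replicate 3.

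**Figure D3:**
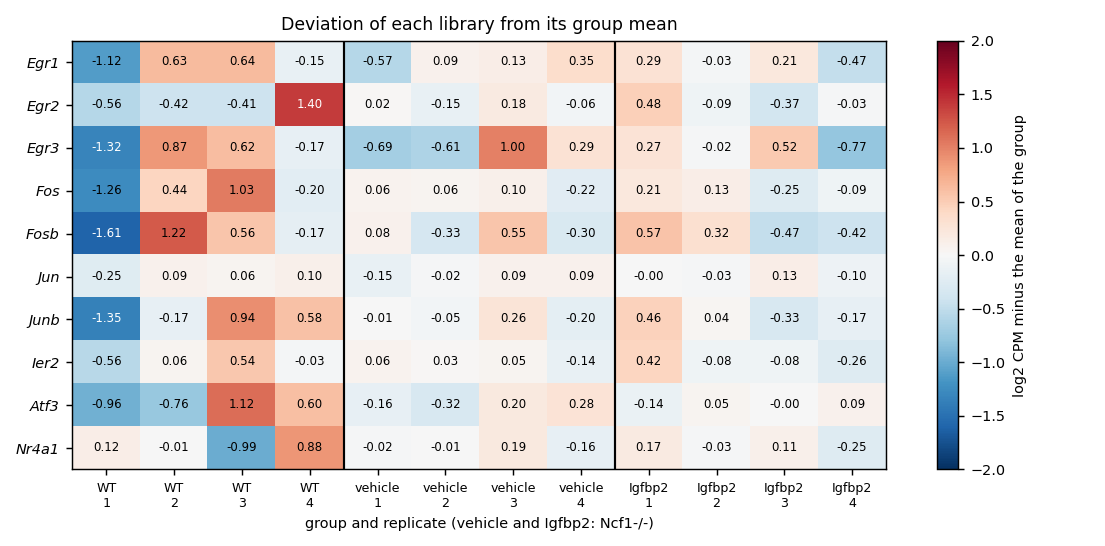
Each cell gives the log2 CPM of a gene (rows) in a library (columns) minus the mean of the 4 libraries of its group, from blue (below) to red (above). WT replicate 1 is blue for 9 genes, with a median of -1.04, and the *Ncf1*-/- libraries are paler than the WT ones.

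Cell type markers also differed between the genotypes. All 6 oligodendrocyte markers (*Mbp* and others), 5 of 6 astrocyte and 5 of 7 neuron markers were called lower in vehicle-treated *Ncf1*-/- NSCs than in WT, as many as without WT replicate 4. With Igfbp2, 5 astrocyte markers were called lower and 1 higher than WT, and 0 higher without WT replicate 4. Oligodendrocyte precursor markers were mixed: of 5, 2 were called higher and 3 lower than WT with vehicle, and 2 higher and 2 lower with Igfbp2. Over all genes tested, 28.2% were called lower and 28.9% higher with vehicle than in WT, and 30.8% and 31.6% with Igfbp2. Of the 10 NSC markers, 7 were called lower and 2 higher with vehicle than in WT (median log2 fold change -0.49), and 5 lower and 2 higher with Igfbp2 (median -0.32), although their summed level in the *Ncf1*-/- libraries lay within the WT range. The oligodendrocyte markers summed to 1483 to 8961 CPM in WT, 191.9 to 247.4 CPM in vehicle-treated and 208.5 to 280.6 CPM in Igfbp2-treated libraries, the astrocyte markers to 5953 to 11210, 2125 to 2732 and 2298 to 3158 CPM, and the neuron markers to 597 to 770.1, 482.6 to 546.9 and 432.3 to 459.5 CPM. In bulk RNA, fewer cells of a type and less RNA per cell cannot be told apart, and the part of cell makeup in the immediate early gene values was not tested. Within WT, replicates 1 and 2 were alike in oligodendrocyte markers (8733 and 8961 CPM) and replicate 3 was low (1483 CPM). *Egr1* was low in replicate 1 and alike in replicates 2 and 3. In WT replicates 1 to 4 the NSC markers summed to 3977, 4316, 10150 and 6097 CPM. The astrocyte markers summed to 5953, 6505, 11210 and 9510 CPM. Both sums were lowest in replicate 1 and highest in replicate 3, as were *Fos*, *Junb*, *Ier2*, *Atf3* and, by little over replicate 2, *Egr1*. No relation of marker sums to these genes was tested. The sums of oligodendrocyte precursor and neuron markers were lowest in replicate 3. Microglia markers summed to at most 2.12 CPM and endothelial markers to at most 6.05 CPM in any library. Of 5 mesenchyme and pericyte markers tested, 3 were called higher with Igfbp2 than with vehicle, where 14.2% of all genes were. Against WT, 3 of the 5 were called higher and 1 lower with vehicle, and 3 higher and 1 lower with Igfbp2 (medians 1.28 and 2.36). Sums over all 7 markers of the list were 5.76 to 7.72 CPM in vehicle-treated, 10.95 to 13.9 CPM in Igfbp2-treated and 7.77 to 24.3 CPM in WT libraries. The largest part of the WT sum was *Pdgfrb*, named after its value was seen. It was at 13.5 ± 8.08 CPM in WT, 0.315 ± 0.131 CPM with vehicle and 1.31 ± 0.289 CPM with Igfbp2. The *Igfbp2* gene itself was at 27.4 to 228.1 CPM in WT, 635.8 to 767.7 CPM in vehicle-treated and 1016 to 1278 CPM in Igfbp2-treated NSCs.

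Beyond the 10 genes, 36 other immediate early genes were listed, of which 35 were tested and *Npas4* had too few counts. Over all genes the shares called higher and lower were 28.9% and 28.2% with vehicle against WT, 31.6% and 30.8% with Igfbp2 against WT and 14.2% and 10.7% between the treatments, with median log2 fold changes of 0.02, -0.01 and 0.04. In vehicle-treated NSCs 15 were higher and 7 lower than in WT, with a median log2 fold change of 0.16. In Igfbp2-treated NSCs 20 were higher and 3 lower than in WT (median 0.74). Between the treatments 14 were higher and 1 (*Mcl1*, a survival factor of the Bcl-2 family) was lower with Igfbp2, with a median of 0.46, where 14.2% of all genes tested were called higher and 10.7% lower. The last count depended on the scale: it was 4 higher and 2 lower on log2(TPM + 1) and 3 higher and 2 lower on log2(TPM + 0.1), and against WT the Igfbp2-treated count was 12 higher and 6 lower on log2(TPM + 1), 13 and 7 on log2(TPM + 0.1) and 18 and 6 on rescaled TPM. The medians of all genes on log2(TPM + 1) were -0.296 and -0.253 in these comparisons. Without WT replicate 4 the counts were 13 higher and 8 lower, 24 higher and 3 lower, and 17 higher and 1 lower in the 3 comparisons.

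*Egr4*, the remaining Egr gene, had 0 to 4 counts in WT libraries, 12 to 30 in vehicle-treated and 42 to 126 in Igfbp2-treated ones. It entered the tests through the *Ncf1*-/- libraries, where it was high, so its calls against WT support nothing further. Its mean reached the 1 CPM needed for naming through the Igfbp2-treated libraries. The 3 groups did not overlap, the order of *Egr2*. Its mean was 0.0540 ± 0.0472 CPM in WT, 0.890 ± 0.359 CPM in vehicle-treated and 4.05 ± 1.65 CPM in Igfbp2-treated NSCs, with log2 fold changes of 3.71 (SE 0.60, adjusted p = 0.000154) and 5.88 (SE 0.54, adjusted p = 1.43e-06) against WT and of 2.17 (SE 0.37, adjusted p = 0.00221) between the treatments. *Ier3*, a survival gene that ERK phosphorylates, rose in the same order, from 8.13 ± 8.29 to 25.9 ± 2.89 and 118.6 ± 14.8 CPM (2.19, SE 0.53, adjusted p = 0.0114 between the treatments). *Klf4*, a pluripotency factor, was higher than WT in vehicle-treated (2.23, SE 0.25, adjusted p = 7.65e-06) and Igfbp2-treated NSCs (2.84, SE 0.25, adjusted p = 1.11e-06).

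*Sik1*, a kinase that restrains CREB coactivators, was at 13.6 ± 4.86 CPM in WT, 5.57 ± 1.099 CPM in vehicle-treated and 23.2 ± 0.901 CPM in Igfbp2-treated NSCs. It was lower than WT with vehicle (-1.27, SE 0.25, adjusted p = 0.000658), where the groups overlapped, and higher than WT with Igfbp2 (0.78, SE 0.23, adjusted p = 0.0111), as *Egr1* was. Between the treatments it was higher with Igfbp2 (2.05, SE 0.25, adjusted p = 0.000546). *Arc*, a synaptic gene known for its induction by neuronal activity, rose from 1.64 to 5.38 CPM between the treatments (1.71, SE 0.52, adjusted p = 0.0308). *Cyr61*, a matrix protein, was lower than WT in both *Ncf1*-/- groups (-1.81, SE 0.15, adjusted p = 6.4e-07 and -0.97, SE 0.14, adjusted p = 6.9e-05). The same held for *Ptgs2*, the inducible cyclooxygenase, at 6.88 ± 1.24 CPM in WT, 0.533 ± 0.101 CPM with vehicle and 0.529 ± 0.128 CPM with Igfbp2 (-3.69, SE 0.22, adjusted p = 7.27e-08 and -3.69, SE 0.23, adjusted p = 7.27e-08). Between the treatments *Ptgs2* differed by -0.01 (SE 0.27, adjusted p = 1).

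Genes that ERK induces, most of them to limit its own pathway, and that are read as a record of ERK activity, were mostly higher in *Ncf1*-/- NSCs whatever the treatment. This list of ERK feedback genes includes the transcription factors *Etv1*, *Etv4* and *Etv5*, which do not limit ERK and are named after their values were seen. *Etv4* and *Etv5* were called higher than WT in both *Ncf1*-/- groups and *Etv1* in neither. Of 12 such genes, 10 were called higher than WT in vehicle-treated NSCs (median 1.33) and 11 in Igfbp2-treated NSCs (median 1.91), with the remainder not called. Between the treatments 6 of 12 were called, all higher with Igfbp2 (median 0.44). Over all genes tested, 28.9%, 31.6% and 14.2% were called higher in these 3 comparisons. *Dusp6*, the phosphatase of ERK, was at 8.70 ± 3.52 CPM in WT, 45.2 ± 4.99 CPM in vehicle-treated and 112.7 ± 24.5 CPM in Igfbp2-treated NSCs, with no overlap between any 2 groups. *Spry4*, an inhibitor of receptor signalling to Ras, rose from 18.03 ± 2.58 to 57.7 ± 9.95 and 175.9 ± 33.5 CPM, and its log2 fold change between the treatments was 1.61 (SE 0.16, adjusted p = 0.000359). *Spry1* was higher than WT by 2.25 (SE 0.12, adjusted p = 3.88e-08) with vehicle and 3.07 (SE 0.13, adjusted p = 3.5e-09) with Igfbp2. In vehicle-treated NSCs, then, *Egr1*, *Fos*, *Fosb* and *Nr4a1* were lower than WT while *Dusp6*, *Spry1* and *Spry4* were higher. *Egr2*, *Ier3*, *Klf4* and, with the limit given above, *Egr4* were also higher than WT there. Of the 35 other immediate early genes tested, 15 were higher and 7 lower.

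Of 20 regulators that act on immediate early promoters, 2 were higher and 7 lower in vehicle-treated NSCs than in WT, 7 higher and 3 lower in Igfbp2-treated NSCs, and 9 were higher between the treatments with the other 11 not called. Against WT, 9 and 10 of the 20 were thus called, a share below that of all genes, and the medians were -0.00 and 0.02. Without WT replicate 4 the Igfbp2-treated count was 4 higher and 4 lower. Between the treatments the median was 0.26, where 14.2% of all genes tested were called higher and 10.7% lower. *Crem*, a CREB relative with an inducible repressor form, was higher than WT in vehicle-treated (1.31, SE 0.18, adjusted p = 4.42e-05) and Igfbp2-treated NSCs (1.38, SE 0.18, adjusted p = 2.95e-05). *Rps6ka1*, a kinase between ERK and CREB, rose in each comparison, by 1.24 (SE 0.09, adjusted p = 3.39e-07), 1.99 (SE 0.09, adjusted p = 1.26e-08) and 0.75 (SE 0.09, adjusted p = 0.000552). *Mkl2*, a cofactor of serum response factor, was higher with Igfbp2 than with vehicle (0.72, SE 0.15, adjusted p = 0.00503).

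Among 9 tested corepressors and known target genes of the Egr proteins, 4 were higher and 1 lower in vehicle-treated NSCs and 5 higher and 1 lower in Igfbp2-treated NSCs than in WT. Over all genes tested, 28.9% were called higher and 28.2% lower with vehicle, and 31.6% and 30.8% with Igfbp2. Between the treatments these shares were 14.2% and 10.7%. Nothing about Egr targets is read from the counts against WT. Between the treatments 2 of the 9 were called, both higher with Igfbp2, and the median log2 fold change over the 9 was 0.72. *F3*, tissue factor, was 1 of them, at 0.82 (SE 0.25, adjusted p = 0.0297). *Icam1*, an adhesion molecule, was higher than WT with vehicle (2.45, SE 0.40, adjusted p = 0.000158) and Igfbp2 (2.84, SE 0.40, adjusted p = 4.74e-05). *Pdgfa*, a growth factor for oligodendrocyte precursors, was lower than WT in both, at 69.0 CPM in WT, 8.98 CPM with vehicle and 14.8 CPM with Igfbp2 (-2.94, SE 0.31, adjusted p = 4.72e-06 and -2.21, SE 0.30, adjusted p = 3.6e-05). Of 10 tested partners of AP-1 proteins, 2 were higher and 3 lower than WT with vehicle, beside the same shares over all genes. With Igfbp2 1 was higher and 2 lower than WT, and 1 was higher between the treatments. The last was *Atf7*, named after its value was seen because its groups overlapped (0.56, SE 0.14), which was lower than WT with vehicle (-0.77, SE 0.14, adjusted p = 0.000364). *Jdp2*, a repressor of AP-1, was higher than WT with vehicle (0.46, SE 0.11, adjusted p = 0.00306) and Igfbp2 (0.62, SE 0.11, adjusted p = 0.00032), and *Mafk*, a small Maf protein, was lower than WT with Igfbp2 (-0.46, SE 0.14, adjusted p = 0.0135) and with vehicle (-0.36, SE 0.14, adjusted p = 0.0417).

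**Figure D4:**
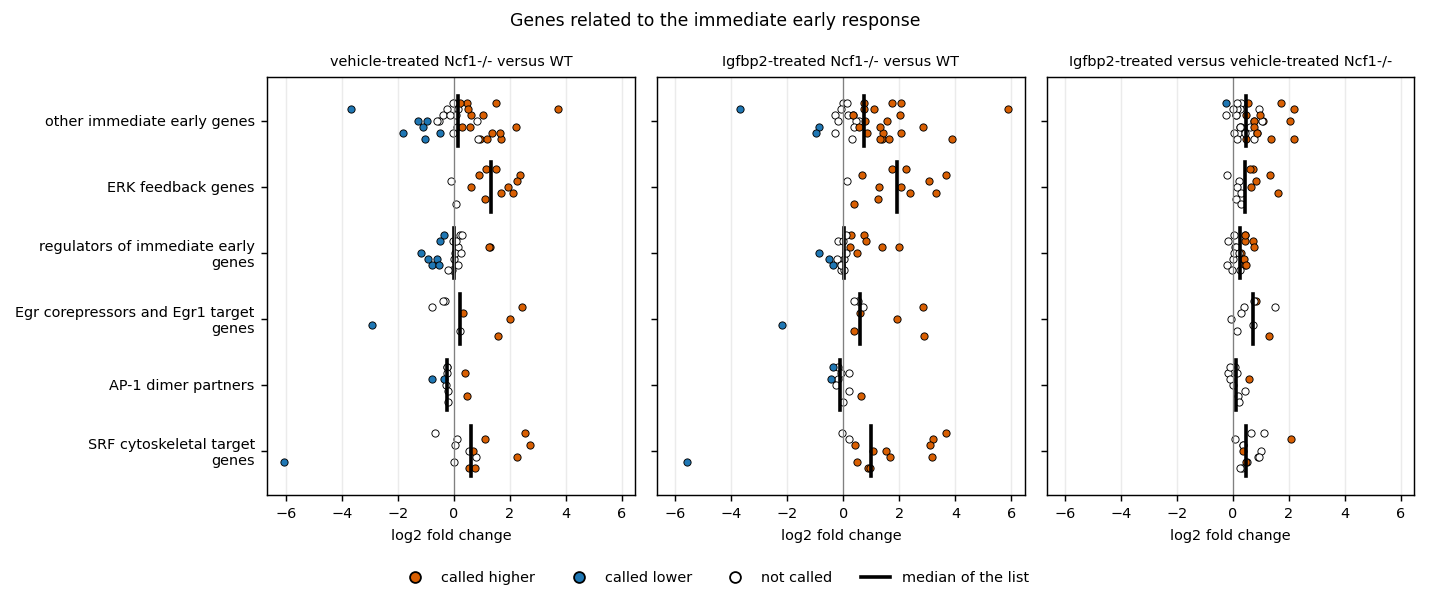
Points are the log2 fold changes of the tested genes of 6 lists (rows) in the 3 comparisons, filled where called, and vertical bars are the list medians. ERK feedback genes lie to the right in both comparisons with WT, with medians of 1.33 and 1.91, and the point at the far left of the lowest row is *Fhl2*.

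The genes whose pattern over the 12 libraries was nearest to that of *Egr1* were found by the root mean square difference of log2 CPM, each gene centred on its own mean, where 13771 genes with at least 1 CPM had a median difference of 1.44. They were *Synpo*, an actin-associated protein (0.746), *Osgin1*, an oxidative stress response gene (0.779), *Unc5b*, a netrin receptor (0.781), *Tnxb*, a matrix protein (0.798), and *Ecm1*, also of the matrix (0.836). *Unc5b* was at 23.1 ± 10.9 CPM in WT, 12.1 ± 3.71 CPM in vehicle-treated and 76.9 ± 11.2 CPM in Igfbp2-treated NSCs. Of the other immediate early genes of the set, *Fosb* ranked 7th and *Junb* 9th by this measure, with differences of 0.846 and 0.847, and *Ier2*, *Fos* and *Jun* ranked 55th, 282nd and 324th. *Nr4a1*, *Egr2* and *Atf3* ranked 6562nd, 7308th and 8314th, about as far from *Egr1* as the median gene, while *Egr3* was under 1 CPM and was not ranked. All the points share the same 12 libraries, and the measure is a description.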

How the data were processed

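RNA from 12 NSC cultures, 4 per group, was depleted of rRNA and sequenced by the authors, who mapped reads with Bowtie2 and quantified genes with RSEM. The submitters' processing notes name the build GRCm38, and versions are not given in the sources used here. The deposited per-library files hold expected counts, estimated by RSEM and not normalized, and TPM scaled by the authors to a fixed sum. The merged deposited table holds a score that equals TPM times the number of transcripts of the gene (within 0.02 for 100% of 257083 values above 0), and was used only to pair gene identifiers with symbols. Of expected counts above 0, 33.8% were not whole.

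Expected counts were rounded, genes filtered with filterByExpr, libraries scaled by TMM, and the 12 libraries fitted by quasi-likelihood with 1 mean for each group in edgeR 4.0.16 (R 4.3.3). P-values were two-sided, were adjusted over the 15706 genes tested (Benjamini-Hochberg) and were called under 0.05. The script was tested on simulated counts. The 17 lists came from general knowledge. The members and lists were chosen with earlier results of these data known. Genes were named by rule: the 10 members, and in each comparison up to 4 other immediate early genes and up to 2 genes of each other list, called with the largest fold change among genes of at least 1 CPM without overlap. The 5 genes nearest to *Egr1* were added. Exceptions are said to be named after their values were seen, and some genes of the lists are not reported here by name.

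The alternatives were DESeq2 1.42.0, library totals, no filter, only the 2 groups compared, limma 3.58.1 on log2(TPM + 1), on log2(TPM + 0.1) and on TPM rescaled without the 100 most abundant genes, the one-way test of the study on TPM with its post hoc comparisons, the culture number as a block, and the omission of each library. The study describes vehicle and Igfbp2 cultures as paired by animal. After group means were taken off, correlations of same-numbered cultures were -0.0673 to 0.0328, and of others -0.248 to 0.257, and their Y-linked expression differed. The replicates of a group are cultures of separate pups per the study's methods, and no pair agreed within sampling noise (chi-square over its degrees of freedom at least 4.64). That spread does not show that each library came from a separate pup. Each vehicle-treated library held Y-linked RNA (105.2 to 115.6 CPM) and *Xist* (72.3 to 87.8 CPM), and sex-linked levels were alike within that group. Whether the *Ncf1*-/- replicates are independent animals could not be checked here. The numbers of reads limit low genes, and SE and SD cover the spread between cultures.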

Additional observations from a re-analysis of the deposited data

Results flagged for a closer look

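In 30 groups of 4 libraries (10 genes, 3 groups), the highest or lowest library stood apart from the other 3 in 4, where chance gives about 1 in 20. *Egr2* in WT replicate 4 was at 3.452 CPM, with 0.819 to 0.918 CPM in the others. *Jun* in WT replicate 1 was at 92.66 CPM, with 114.9 to 118 CPM in the others. Vehicle-treated replicate 4 was low in *Fos* (21.45 CPM, with 26.1 to 26.8 CPM in the others) and in *Ier2* (11.9 CPM, with 13.5 to 13.8 CPM in the others).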

How the results depend on the processing

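With the one-way test of the study on TPM, 1 of the 10 genes was called between vehicle-treated *Ncf1*-/- and WT NSCs and 3 between Igfbp2-treated and WT NSCs (5 and 5 in the main analysis), and 6, 8 and 2 of the other immediate early genes were called in the 3 comparisons (22, 23 and 15). The share of all genes called is given for the main analysis only. Counts from other fits, here and above, therefore do not show whether these genes changed more than others did. With limma on log2(TPM + 1), 14 of these were called between vehicle-treated and WT NSCs and 6 between the treatments, and with limma on log2(TPM + 0.1) 5 between the treatments. The log2 fold change of *Egr1* between the treatments was 2.51 on log2(TPM + 1) and in the study's test and 2.68 on log2(TPM + 0.1), scales on which the median of all genes was -0.296 and -0.42, and the cause was not tested. Across the 12 fits that each left out 1 library, it ran from 3.01 to 3.31, the members called from 5 to 6 in vehicle-treated and from 5 to 8 in Igfbp2-treated NSCs against WT, and the other immediate early genes from 17 to 23, 21 to 27 and 10 to 18.

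The sign changed for values that were not called: *Egr3* in vehicle-treated NSCs against WT (-0.22 without vehicle-treated replicate 3 and -0.01 without WT replicate 1, in a range of -0.22 to 0.74 over the fits that left out 1 library), and in Igfbp2-treated NSCs against WT *Fos* (0.06 without WT replicate 3, in a range of -0.64 to 0.06), *Fosb* (-0.01 on log2(TPM + 1), -0.05 in the study's test) and *Atf3* (-0.01 and -0.10 in the same fits). The cause was not tested. With the replicate block, in the 8 *Ncf1*-/- libraries, *Egr1* differed by 3.12 and 22 other immediate early genes were called between the treatments, the same number as in the 2 groups without the block, and the block could not be fitted with WT, which shares no animals. Genes under 1 CPM, such as *Egr3*, are limited by depth.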

Other observations

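Serum response factor also drives genes of the actin cytoskeleton. Beside 28.9% of all genes called higher and 28.2% lower with vehicle against WT, 31.6% and 30.8% with Igfbp2 against WT and 14.2% and 10.7% between the treatments, of 14 such genes vehicle-treated *Ncf1*-/- NSCs had 7 higher and 1 lower than WT (median log2 fold change 0.63), Igfbp2-treated NSCs had 11 higher and 1 lower, and 4 were higher with Igfbp2 than with vehicle, with the other 10 not called (median 0.47). *Tagln*, an actin-binding protein of smooth muscle, was at 1.80 ± 0.885 CPM in WT, 4.06 ± 0.598 CPM in vehicle-treated and 17.1 ± 4.16 CPM in Igfbp2-treated NSCs (2.08, SE 0.27, adjusted p = 0.000696 between the treatments), with no overlap between any 2 groups. *Actg1*, cytoplasmic actin, was higher by 0.36 (SE 0.11, adjusted p = 0.0275) between the treatments. *Tagln2* was higher than WT with vehicle (2.71, SE 0.25, adjusted p = 1.78e-06) and with Igfbp2 (3.08, SE 0.26, adjusted p = 7.11e-07). *Acta2*, smooth muscle actin, was higher than WT with vehicle (2.55, SE 0.61, adjusted p = 0.00286) and with Igfbp2 (3.67, SE 0.61, adjusted p = 0.000186), and was not called between the treatments (1.11, SE 0.52, adjusted p = 0.134). The gene that fell was *Fhl2*, a LIM protein and cofactor of serum response factor, at 25.6 ± 16.7 CPM in WT and 0.376 ± 0.165 CPM in vehicle-treated NSCs (-6.06, SE 0.65, adjusted p = 5.44e-06), and it was also lower than WT with Igfbp2 (-5.58, SE 0.64, adjusted p = 8.65e-06).

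Heat shock genes, which answer protein stress, had median log2 fold changes of -0.00, 0.23 and 0.14 in the comparisons of vehicle-treated with WT, Igfbp2-treated with WT and the treatments. Of 12, 4 were higher and 2 lower in vehicle-treated NSCs than in WT, 5 higher and 1 lower in Igfbp2-treated NSCs, and 1 higher and 1 lower between the treatments, so that 6 of the 12 were called in each comparison with WT, a share somewhat below that of all genes. The last were *Bag3*, a cochaperone (0.68, SE 0.12, adjusted p = 0.00278, after -0.70, SE 0.12, adjusted p = 0.000295 for vehicle against WT), and *Dnaja1*, another (-0.30, SE 0.10, adjusted p = 0.0452). *Hspe1* and *Hspd1*, the mitochondrial chaperonins, were higher than WT with vehicle (0.95, SE 0.08, adjusted p = 6.47e-07 and 0.81, SE 0.13, adjusted p = 0.00015) and with Igfbp2 (1.04, SE 0.08, adjusted p = 3.12e-07 and 1.01, SE 0.13, adjusted p = 2.33e-05), and neither was called between the treatments (0.09, SE 0.08, adjusted p = 0.417 and 0.20, SE 0.13, adjusted p = 0.264). *Hspa1b*, whose reads are close to those of its neighbour *Hspa1a* and are therefore uncertain, was lower than WT with vehicle (-0.81, SE 0.24, adjusted p = 0.00962).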
